A study of Glycine max with 12 samples.

Results

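The 46 soybean genes described here were those with more transcript in closed flowers under water deficit (WD) at both day temperatures. They were chosen from 55897 genes by CPM, the count of a gene divided by the total of its library and scaled to 1000000 reads. A gene was a member if its lowest WD library was at least 1.3 times its highest control (CT) library, if its lowest library of water deficit combined with heat stress (WD + HS) was at least 1.3 times its highest heat stress (HS) library, and if all WD + HS libraries reached 2 CPM. A ratio of 1.5 was tried before and left 11 genes, fewer than the 30 asked for, and 2 genes were left out by name (GLYMA_15G250100 and GLYMA_08G176300). WD against CT and WD + HS against HS therefore chose the members and are given as descriptions, with no test read from them. HS against CT and WD + HS against WD did not enter the choice, but they use the same 12 libraries.

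Soybean plants (Glycine max cv Magellan) were kept well watered at a day temperature of 28°C (CT), given 30% of the water available for transpiration at 28°C (WD), well watered at 38°C (HS), or given 30% of that water at 38°C (WD + HS). The stresses lasted 10 d. Each of the 3 libraries per treatment came from RNA of 30 to 40 closed flowers pooled over 8 to 10 plants, so that replicates measure the spread between pools. Each treatment had a growth chamber of its own, so that chamber and treatment cannot be told apart.

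Plants short of water make abscisic acid (ABA), a hormone whose receptors block protein phosphatases of type 2C (PP2C) and so free kinases that switch on ABA-responsive genes. Cells also collect compatible solutes, such as proline and the raffinose family of sugars, and protective proteins that keep membranes and enzymes working as water is lost. Most of these roles were worked out in Arabidopsis, whose gene descriptions the study attached to its lists of changed soybean genes, and 28 of the 46 members had such a description.

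Library totals ran from 14049107 to 22415845 counts, and replicates of a group correlated at 0.987 to 0.994 across genes (log2(CPM + 1), Pearson's r), against 0.972 to 0.990 between groups. The study's lists of changed genes held 9 genes matched as flower organ regulators, by MADS-box and like terms. None was at 0 in all libraries, but they were chosen on these libraries, so this is no check of flower identity. Their summed level was 25.2 to 29.6 CPM under HS, 42.6 to 49.997 under WD + HS, 51.04 to 63.4 under CT and 50.6 to 69.7 under WD. Anther and pollen markers (7 genes) summed to 90.1 to 94.3 CPM under WD + HS, and to 129.0 to 129.9 under CT, 122.4 to 186 under WD and 123.4 to 154 under HS. Markers of green tissue (9 genes) overlapped between all groups, with 107.5 to 240.0 CPM under CT and 129 to 334 under WD + HS. The first 2 lists differed between groups, and their part in the members' values was not tested. All these markers came from the study's lists of changed genes, so a difference between groups was favoured by that choice. In whole flowers, fewer cells of a type and less RNA per cell cannot be told apart.

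Summed over the 46 members, the libraries held 1189.8 to 1273 CPM in CT, 1979.9 to 2004 in WD, 1289 to 1366 in HS and 2583 to 2743 in WD + HS. The means were 1240.7 ± 44.6 (SD, n = 3), 1994 ± 12.8, 1333 ± 39.4 and 2654 ± 81.5 CPM. The rule set WD above CT and WD + HS above HS in these sums. The 3 most abundant members, at 353, 297 and 192 CPM on average, weigh most in them. By the rule, only WD or WD + HS could have the highest group mean of a member, and only CT or HS the lowest. Within that limit, WD + HS had the highest group mean for 38 members and WD for the other 8. CT had the lowest group mean for 33 members and HS for the other 13. Mean levels over the 12 libraries ran from 1.41 to 353 CPM with a median of 11.3, and 22 members were under 10 CPM. The members' median coefficient of variation between replicates was 8.74% for CT, 10.7% for WD, 11.4% for HS and 9.64% for WD + HS. The lowest count of any member in any library was 5 reads, and 3 members had a library under 10 reads. The map of all members by library gives these levels gene by gene.

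**Figure D1:**
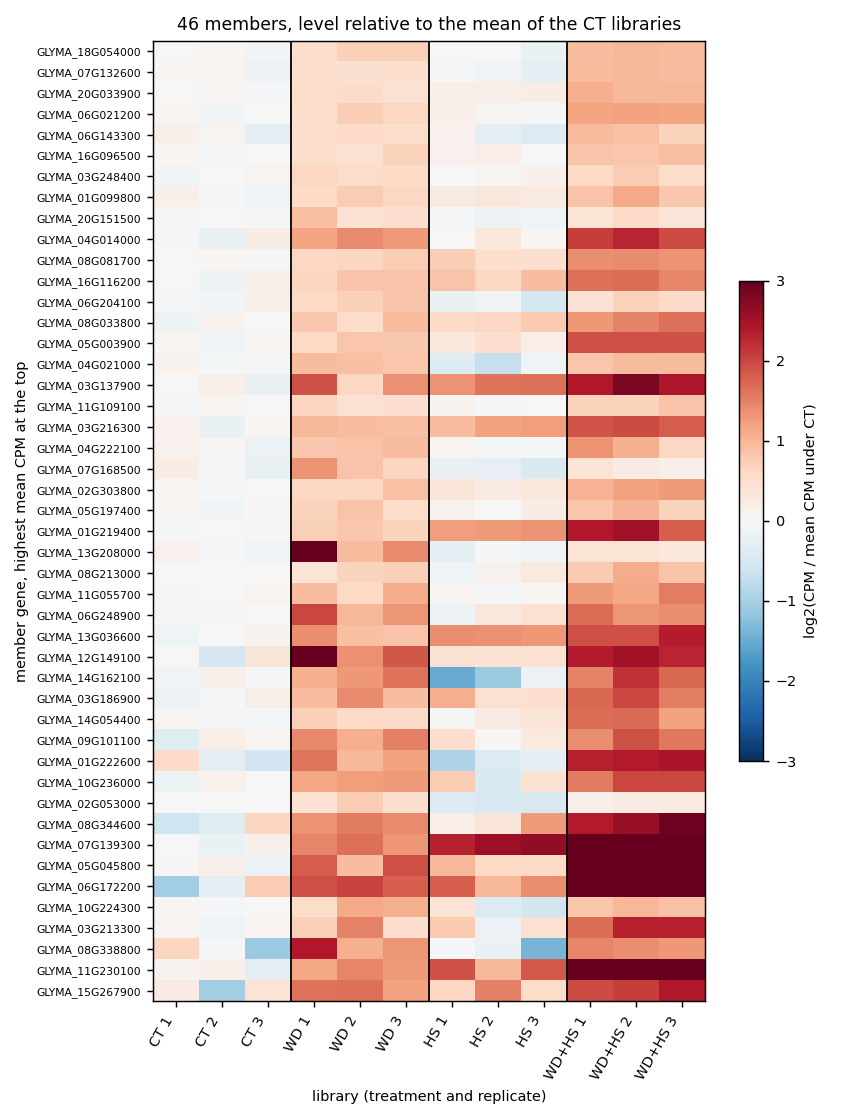
Level of each of the 46 members (rows, highest mean CPM at the top) in the 12 libraries (columns, by treatment and replicate), as the log2 ratio of its CPM to its mean CPM under CT, with colours capped at 3 in both directions. By the choice of members, all WD columns are above the CT columns and all WD + HS columns above the HS columns, while the HS columns are red for some members and blue for others.

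Single libraries stood apart for some members. WD replicate 1 was at least 1.5 times the next WD library for 4 members (GLYMA_06G248900, GLYMA_08G338800, GLYMA_12G149100 and GLYMA_13G208000). CT 1, CT 3, HS 1 and HS 3 each stood apart in this way for 2 members, and WD 2 and HS 2 each for 1. No WD + HS library did so for any member. The spread was widest under WD for GLYMA_13G208000, with a coefficient of variation of 78.1%.

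In an edgeR fit of all 38410 genes with enough counts, which all 46 members passed, members were higher by a median log2 fold change of 0.91 in WD against CT (range 0.52 to 2.32) and of 1.06 in WD + HS against HS (range 0.57 to 2.93). Of the members, 39 (84.8%) were called higher in WD against CT at an adjusted p under 0.05, beside 0.937% of all genes tested, and 43 (93.5%) in WD + HS against HS, beside 3.21% of all genes. All estimates were above 0 in both, so that no member was called lower, beside 0.682% and 5.94% of all genes. These counts follow from how members were chosen. The fit called 38 members in both contrasts, 1 in WD against CT alone and 5 in WD + HS against HS alone. GLYMA_02G053000 and GLYMA_15G267900 were called in neither. The median over all genes tested was near 0 in both contrasts, and the estimate was larger at 38°C for 34 members and smaller for 12. Both contrasts chose the members, and the minimum of 2 CPM applied to WD + HS alone, so this split is a description.

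**Figure D2:**
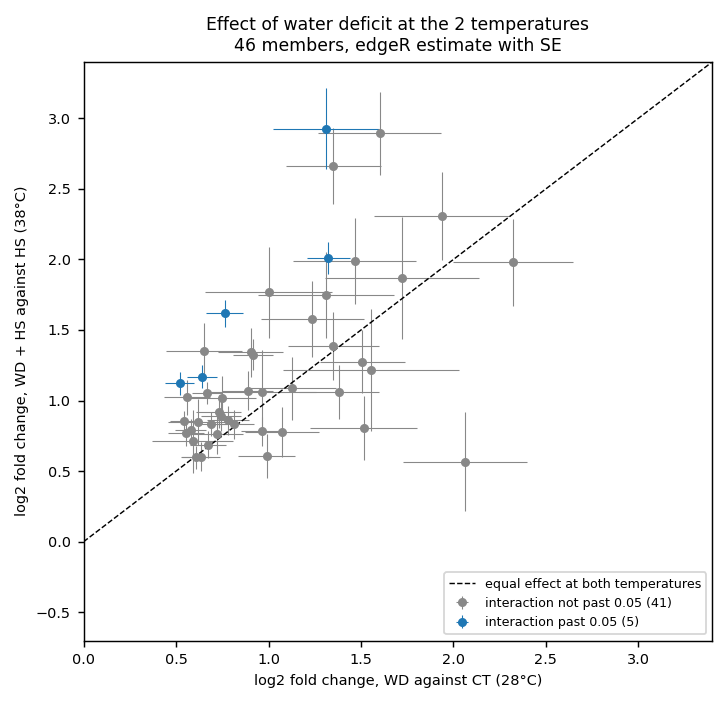
Log2 fold change of WD against CT at 28°C (horizontal) and of WD + HS against HS at 38°C (vertical) for the 46 members, as edgeR estimates with their SE (bars). Points above the dashed line had a larger estimate at 38°C (34 members). The 5 blue points are those whose difference between the temperatures had an adjusted p under 0.05. Both axes were used to choose the members.

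Of the members, 2 were on the list of genes described for ABA synthesis, signalling and response. Zeaxanthin epoxidase (GLYMA_11G055700, ABA1) makes violaxanthin, from which ABA is built. It stood at 4.69, 4.86 and 5.16 CPM in the CT libraries, 9.32, 7.48 and 10.6 in WD, 5.17, 4.74 and 5.04 in HS and 11.9, 10.9 and 14.1 in WD + HS. Both WD groups were above both well-watered groups, and CT and HS overlapped. In WD + HS against WD its log2 fold change was 0.44 (SE 0.17, adjusted p = 0.0537 in edgeR), with all WD + HS libraries above all WD libraries, and HS against CT was near 0 (SE 0.18, adjusted p = 0.997).

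GLYMA_14G162100, described as highly ABA-induced PP2C gene 3, belongs to the phosphatases that hold ABA signalling back in Arabidopsis. It stood at 3.13, 3.84 and 3.32 CPM in the CT libraries, 7.19, 8.45 and 10.5 in WD, 1.19, 1.58 and 3.02 in HS and 9.69, 15.3 and 11.2 in WD + HS. Here HS was the lowest group, below every CT library, and HS replicate 3 was well above the other HS libraries. The gene fell in HS against CT, with a log2 fold change of -0.85 (SE 0.29, adjusted p = 0.0275 in edgeR). That call was lost in 6 of 21 alternatives, among them without CT replicate 2 (-0.74, adjusted p = 0.102 in edgeR), without HS replicate 1 (-0.61, adjusted p = 0.135) and without HS replicate 2 (-0.72, adjusted p = 0.1102). In WD + HS against WD its log2 fold change was 0.46 (SE 0.24, adjusted p = 0.154 in edgeR), with overlapping libraries. Its log2 ratio between WD + HS and HS, 2.66 (SE 0.27), was among the 3 largest of the members.

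GLYMA_06G204100 is described as a protein of the family that binds ABI5, an ABA-responsive transcription factor of Arabidopsis. It stood at 29.1, 28.6 and 33.6 CPM in the CT libraries, 46.3, 49.6 and 55.4 in WD, 26.5, 27.6 and 21 in HS and 41.4, 49.1 and 45.6 in WD + HS. It was lowest under HS, and its WD and WD + HS libraries overlapped. HS against CT gave -0.30 (SE 0.11, adjusted p = 0.041 in edgeR), a fall that was lost in 8 of 21 alternatives, among them each CT library left out in turn and HS replicate 3 left out (-0.18, adjusted p = 0.232 in edgeR), and with the replicate block (-0.30, adjusted p = 0.0505). Of 15 genes described for ABA synthesis, signalling and response, 2 were members, and GLYMA_06G204100 was not on this list. In WD against CT 5 of the 15 rose and 1 fell (median log2 fold change 0.53), beside 0.937% and 0.682% of all genes. WD + HS against HS was called higher for 5 and lower for 3 of the 15 (median -0.08), beside 3.21% and 5.94%. The list was drawn from genes the study chose on these libraries. It is not independent evidence of a direction or of a share called, which holds for each list of descriptions given here.

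The sugar and solute genes were the best described group of members. Raffinose synthase (GLYMA_05G003900) joins galactose to sucrose to make raffinose. It stood at 19.6, 17.2 and 19.8 CPM in the CT libraries, 28.5, 33.4 and 33 in WD, 23.7, 26.9 and 21.7 in HS and 72.1, 72.8 and 71.3 in WD + HS. The WD + HS libraries lay close together and far above all others, while WD and HS libraries did not overlap with CT. It rose with heat in both waterings, by 0.33 (SE 0.10, adjusted p = 0.016 in edgeR) in HS against CT and by 1.18 (SE 0.10, adjusted p = 1.48e-08) in WD + HS against WD. The call in HS against CT was lost in 2 of 21 alternatives.

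Seed imbibition 2 (GLYMA_03G137900) is related to raffinose synthases and, in Arabidopsis, cuts galactose from raffinose. It stood at 9.78, 10.9 and 8.23 CPM in the CT libraries, 36.1, 14.9 and 24.9 in WD, 24.3, 30.0 and 30.1 in HS and 51.2, 68.7 and 51.7 in WD + HS. WD replicate 2 was low for its group but above all CT libraries, and WD and HS overlapped. The gene rose by 1.51 (SE 0.21, adjusted p = 1.25e-05 in edgeR) in HS against CT and by 1.19 (SE 0.20, adjusted p = 8.34e-05) in WD + HS against WD. Among the 10 genes described for the raffinose family of sugars, 10 rose in HS against CT, beside 15.9% of all genes tested. In WD + HS against WD 8 rose, beside 13.7%. Only genes the study had called changed could be on this list, so its higher shares follow in part from that choice. In WD against CT 3 of the 10 rose, beside 0.937% of all genes. In WD + HS against HS 5 rose and 1 fell, beside 3.21% and 5.94%.

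Sucrose synthase 3 (GLYMA_03G216300) splits sucrose into fructose and UDP-glucose. It stood at 13.4, 10.8 and 12.9 CPM in the CT libraries, 24.6, 23.5 and 23.1 in WD, 23.5, 28.5 and 29.7 in HS and 46, 47.6 and 43.2 in WD + HS. Levels stepped up from CT to WD and HS and again to WD + HS, and WD and HS overlapped. The gene rose by 1.12 (SE 0.11, adjusted p = 1.17e-07 in edgeR) in HS against CT and by 0.94 (SE 0.10, adjusted p = 8.52e-07) in WD + HS against WD, and neither call was lost in any alternative.

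The polyol/monosaccharide transporter 5 (GLYMA_04G014000) moves sugars and sugar alcohols across the plasma membrane in Arabidopsis. It stood at 21.9, 19.9 and 26.5 CPM in the CT libraries, 52, 61.3 and 55.1 in WD, 22.6, 28.5 and 23.9 in HS and 95.8, 110.5 and 88.4 in WD + HS. CT and HS overlapped, all WD libraries were above them, and all WD + HS libraries were above those of WD. The log2 fold change was 0.12 (SE 0.12, adjusted p = 0.474 in edgeR) in HS against CT and 0.80 (SE 0.11, adjusted p = 9.15e-06) in WD + HS against WD, where it rose. Among genes described for starch and sugar breakdown and transport, 28 were tested. In WD against CT 10 of them rose and 1 fell (median log2 fold change 0.47), beside 0.937% and 0.682% of all genes. In WD + HS against HS 6 rose and 5 fell (median -0.10), beside 3.21% and 5.94%.

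Delta 1-pyrroline-5-carboxylate synthase 2 (GLYMA_01G099800) catalyses the rate-limiting step of proline synthesis. It stood at 46, 39.9 and 37.8 CPM in the CT libraries, 62.5, 69.5 and 63.3 in WD, 49.6, 52.5 and 49.7 in HS and 75.2, 90.9 and 72.6 in WD + HS. The order CT, HS, WD and WD + HS held without overlap between neighbouring groups. It rose by 0.27 (SE 0.10, adjusted p = 0.0364 in edgeR) in HS against CT and by 0.29 (SE 0.10, adjusted p = 0.0269) in WD + HS against WD. The former call was lost in 7 of 21 alternatives and the latter in 5. Without WD + HS replicate 2, the library with its highest level, WD + HS against WD gave 0.19 (adjusted p = 0.173 in edgeR). With CT replicate 3 left out, HS against CT gave 0.21 (adjusted p = 0.156 in edgeR). All 3 genes of the proline and trehalose list were tested. This member was the only one called in WD against CT or in WD + HS against HS. Of all genes, 0.937% rose in the former contrast and 3.21% in the latter.

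**Figure D3:**
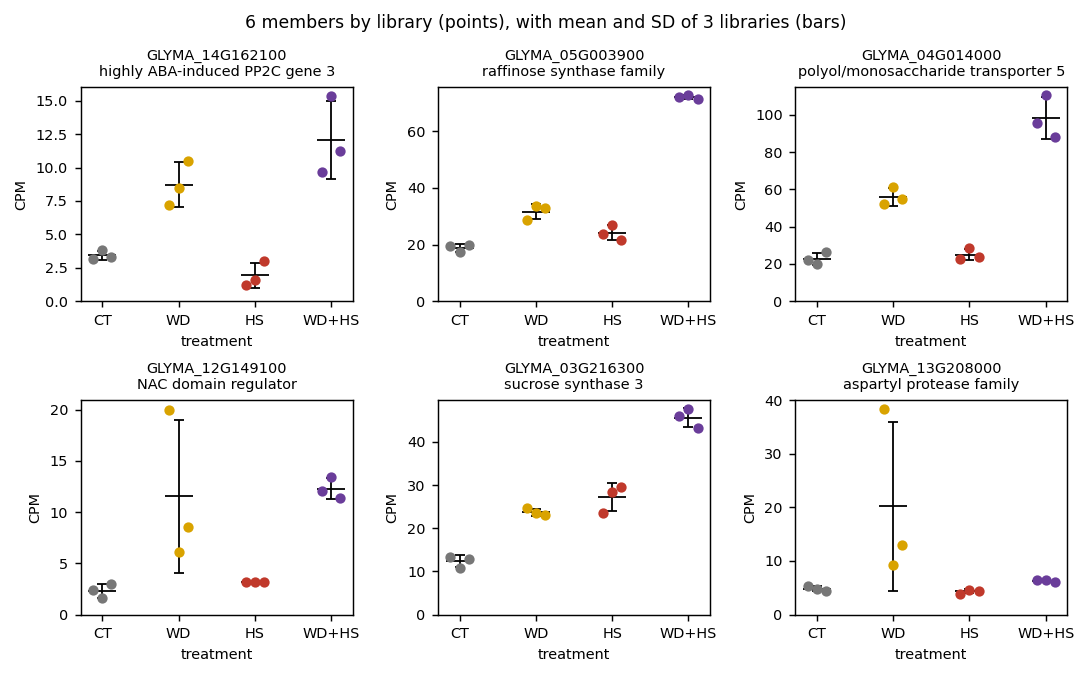
CPM of 6 members in each library (points), with the mean and SD of the 3 libraries per treatment (bars). By group mean, WD + HS is highest for all but GLYMA_13G208000, where WD is highest. WD replicate 1 is the highest library for GLYMA_12G149100 and GLYMA_13G208000.

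CAP160 protein (GLYMA_10G236000), of a family named after a spinach protein of cold acclimation, was the only member on the list of dehydration protection proteins. It stood at 1.83, 2.23 and 2.03 CPM in the CT libraries, 4.56, 4.84 and 4.89 in WD, 3.41, 1.47 and 2.77 in HS and 6.01, 8.15 and 8.15 in WD + HS. HS spread from below to above the CT range, and all WD + HS libraries were above those of WD. Its log2 fold change was 0.30 (SE 0.29, adjusted p = 0.464 in edgeR) in HS against CT and 0.64 (SE 0.26, adjusted p = 0.0664) in WD + HS against WD. Of the 9 genes on that list, 3 rose and 1 fell in WD against CT, beside 0.937% and 0.682% of all genes. In WD + HS against HS 3 rose and 2 fell (median -0.26), beside 3.21% and 5.94%.

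Members described as transcription factors were 2 NAC genes and a PLATZ gene. NAC genes are a plant-specific family of regulators of stress and development. PLATZ genes code for a plant-specific family of zinc-binding DNA-binding proteins. GLYMA_12G149100 (NAC) stood at 2.35, 1.65 and 3.01 CPM in the CT libraries, 20.0, 6.08 and 8.51 in WD, 3.18, 3.16 and 3.22 in HS and 12, 13.4 and 11.4 in WD + HS. WD replicate 1 was far above the other WD libraries, and HS stayed within a narrow band just above CT. Its WD against CT value, 2.32 on the log2 scale, was the largest of the members and became 1.66 without WD replicate 1. WD + HS against WD was 0.11 (SE 0.29, adjusted p = 0.819 in edgeR), with overlapping libraries, and became a rise of 0.76 (adjusted p = 0.0117 in edgeR) without WD replicate 1.

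GLYMA_06G248900 (NAC) stood at 3.91, 4.1 and 3.93 CPM in the CT libraries, 16, 7.96 and 9.98 in WD, 3.58, 5.0 and 5.44 in HS and 12.7, 9.97 and 10.4 in WD + HS. As for the other NAC member, WD replicate 1 was the highest library and WD and WD + HS overlapped. Neither heat contrast was called, with 0.21 (SE 0.24, adjusted p = 0.544 in edgeR) in HS against CT and -0.03 (SE 0.21, adjusted p = 0.947) in WD + HS against WD. The PLATZ gene (GLYMA_11G109100) stood at 21.4, 23.3 and 22.5 CPM in the CT libraries, 35.2, 30.9 and 31.9 in WD, 24.2, 21.4 and 22.1 in HS and 35.9, 36.3 and 40.4 in WD + HS, with CT and HS overlapping and every WD + HS library above every WD library. Its log2 fold change in WD + HS against WD was 0.20 (SE 0.09, adjusted p = 0.115 in edgeR). Genes described as NAC, homeobox, WRKY, PLATZ or ABF factors numbered 41 among those tested. In WD against CT 7 of them rose and 1 fell, beside 0.937% and 0.682% of all genes. In WD + HS against HS 10 rose and 4 fell (median 0.13), beside 3.21% and 5.94%.

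Phospholipase C 2 (GLYMA_11G230100) splits membrane phosphoinositides into second messengers. It stood at 0.652, 0.669 and 0.491 CPM in the CT libraries, 1.35, 1.67 and 1.47 in WD, 2.27, 1.21 and 2.17 in HS and 5.64, 6.67 and 6.22 in WD + HS. CT was the lowest group, WD and HS overlapped, and WD + HS was far above both. The gene was counted with 8 to 103 reads a library. The fit did not call it in WD against CT (adjusted p = 0.0796 in edgeR). In values scaled to transcript length (FPKM) its WD and CT libraries overlapped. It rose by 1.59 (SE 0.36, adjusted p = 0.00169 in edgeR) in HS against CT and by 2.03 (SE 0.31, adjusted p = 4.35e-05) in WD + HS against WD, its rise in the latter being the largest of the members.

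Glutathione peroxidase 6 (GLYMA_01G219400) reduces peroxides. It stood at 4.24, 4.28 and 4.42 CPM in the CT libraries, 7.12, 7.53 and 6.9 in WD, 10.3, 10.4 and 11 in HS and 22.9, 24.6 and 15.3 in WD + HS. No 2 groups overlapped, and the order was CT, WD, HS and WD + HS. The gene rose by 1.27 (SE 0.17, adjusted p = 9.84e-06 in edgeR) in HS against CT and by 1.54 (SE 0.17, adjusted p = 6.1e-07) in WD + HS against WD. The RNI-like protein GLYMA_13G036600, with a leucine-rich repeat fold, stood at 2.8, 3.08 and 3.26 CPM in the CT libraries, 7.97, 5.7 and 5.49 in WD, 7.96, 7.9 and 7.5 in HS and 11.7, 11.6 and 15.6 in WD + HS. Its HS libraries reached the level of WD replicate 1, and the WD + HS libraries were above all others. It rose by 1.33 (SE 0.19, adjusted p = 2.25e-05 in edgeR) in HS against CT and by 1.03 (SE 0.18, adjusted p = 0.000188) in WD + HS against WD.

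A fall in WD + HS against WD was called for 2 members. The aspartyl protease GLYMA_13G208000, of a family of enzymes that cut proteins, stood at 5.28, 4.73 and 4.48 CPM in the CT libraries, 38.3, 9.31 and 13 in WD, 3.92, 4.63 and 4.48 in HS and 6.38, 6.46 and 6.04 in WD + HS. WD replicate 1 was far above the other WD libraries, and every WD + HS library was below every WD library. It fell in WD + HS against WD, with a log2 fold change of -1.67 (SE 0.33, adjusted p = 0.000586 in edgeR). Without WD replicate 1 the fall was -0.81 on the log2 scale and still called (adjusted p = 0.00362 in edgeR), and WD against CT became 1.21 in place of 2.06. At 38°C the effect of WD was 0.57 (SE 0.35, adjusted p = 0.395 in edgeR), the smallest of the members. This effect was not called, although the libraries did not overlap by the rule.

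GLYMA_07G168500, a 2-oxoglutarate and Fe(II)-dependent oxygenase of a large family of oxidative enzymes, stood at 17.8, 14.7 and 13.1 CPM in the CT libraries, 38.4, 27.4 and 23.9 in WD, 13, 12.8 and 11.3 in HS and 20.3, 17.9 and 17 in WD + HS. The order from low to high was HS, CT, WD + HS and WD, by group mean. Every HS library was just below every CT library, and CT replicate 1 lay within the WD + HS range. It fell in WD + HS against WD, with a log2 fold change of -0.70 (SE 0.15, adjusted p = 0.00135 in edgeR), while HS against CT gave -0.32 (SE 0.16, adjusted p = 0.135).

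Both members described as expansin A8, proteins that loosen the cell wall, had like patterns. GLYMA_06G143300 stood at 61.1, 58 and 45.8 CPM in the CT libraries, 79.4, 82.1 and 79.5 in WD, 60.5, 44.8 and 42.3 in HS and 105, 101 and 86.7 in WD + HS. GLYMA_04G222100 stood at 19.3, 18.3 and 15.7 CPM in the CT libraries, 31.2, 32.3 and 34.2 in WD, 18.8, 17.4 and 17.5 in HS and 45.2, 37.2 and 27.5 in WD + HS. In both, CT and HS overlapped and neither heat contrast was called, although all WD + HS libraries of GLYMA_06G143300 were above its WD libraries. WD + HS replicate 3 was the lowest WD + HS library in both, and in GLYMA_04G222100 it was below all WD libraries. Their log2 fold changes in WD + HS against WD were 0.28 (SE 0.12, adjusted p = 0.0929 in edgeR) and 0.17 (SE 0.14, adjusted p = 0.37). Among 56 tested genes described for cell wall loosening, 6 rose and 12 fell in WD against CT, beside 0.937% and 0.682% of all genes. In WD + HS against HS 9 rose and 16 fell (median -0.41), beside 3.21% and 5.94%. Both expansins were among those that rose in each contrast.

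The 2 members with a DC1 domain, a cysteine- and histidine-rich zinc-binding fold, had different calls in the heat contrasts. GLYMA_06G021200 stood at 67.7, 60.5 and 63.1 CPM in the CT libraries, 91.8, 106 and 97.7 in WD, 70.4, 67 and 62 in HS and 145, 148 and 145 in WD + HS. CT and HS overlapped, and WD + HS was above WD in every library. It rose in WD + HS against WD by 0.57 (SE 0.08, adjusted p = 1.54e-05 in edgeR) and had 0.04 (SE 0.08, adjusted p = 0.761) in HS against CT. GLYMA_04G021000 stood at 26.9, 23.9 and 23.9 CPM in the CT libraries, 48, 46.9 and 44.4 in WD, 19.2, 15.5 and 22.7 in HS and 44.4, 48 and 47.9 in WD + HS. Here HS was below CT in every library and WD and WD + HS overlapped. It fell in HS against CT, with a log2 fold change of -0.40 (SE 0.11, adjusted p = 0.00861 in edgeR), a call lost in 3 of 21 alternatives, among them without HS replicate 2 (-0.27, adjusted p = 0.0713 in edgeR), and WD + HS against WD was 0.01 (SE 0.11, adjusted p = 0.965). Whether the pair differed in their response was not tested.

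GLYMA_01G222600, a protein of unknown function with a DUF567 domain, stood at 2.74, 1.52 and 1.23 CPM in the CT libraries, 5.55, 3.66 and 4.22 in WD, 0.967, 1.37 and 1.51 in HS and 9.26, 9.48 and 10.0 in WD + HS. The WD + HS libraries lay close together and above all others, HS was the lowest group and overlapped with CT. Its ratio of the lowest WD + HS to the highest HS library, 6.13, was the largest of the members. It rose in WD + HS against WD by 1.10 (SE 0.26, adjusted p = 0.00262 in edgeR). The serine-rich protein GLYMA_08G344600 stood at 0.913, 1.07 and 2.15 CPM in the CT libraries, 3.49, 4.04 and 3.69 in WD, 1.59, 1.79 and 3.32 in HS and 7.17, 8.5 and 10.4 in WD + HS. The highest replicate of CT was above the lower HS libraries, and WD + HS was above WD throughout. It rose in WD + HS against WD by 1.21 (SE 0.29, adjusted p = 0.00331 in edgeR).

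The UDP-glycosyltransferase GLYMA_08G338800, of the enzymes that attach sugars to small molecules, stood at 2.28, 1.43 and 0.676 CPM in the CT libraries, 7.69, 3.07 and 3.69 in WD, 1.42, 1.26 and 0.554 in HS and 4.05, 3.86 and 3.62 in WD + HS. CT 1 and WD 1 were high for their groups, and CT and HS overlapped, as did WD and WD + HS. Its log2 fold change of WD against CT was 1.72, and 1.21, no longer called, without WD replicate 1. Neither heat contrast was called, with -0.46 (SE 0.46, adjusted p = 0.477 in edgeR) and -0.31 (SE 0.39, adjusted p = 0.588).

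The most abundant members had no description. GLYMA_18G054000 stood at 259, 270.4 and 244 CPM in the CT libraries, 369, 424 and 424 in WD, 256, 261 and 226 in HS and 490.4, 517 and 499 in WD + HS. GLYMA_07G132600 stood at 235, 238 and 202 CPM in the CT libraries, 323, 315 and 322 in WD, 218, 210.4 and 188 in HS and 438, 444 and 425 in WD + HS. GLYMA_20G033900 stood at 139, 140.3 and 131 CPM in the CT libraries, 199.7, 205 and 187 in WD, 155, 156 and 160.0 in HS and 290.4, 267 and 271 in WD + HS. These were the 3 members above 100 CPM on average. For each of them WD + HS was above WD in every library, and all rose in that contrast, by 0.31 (SE 0.08, adjusted p = 0.0052 in edgeR), 0.44 (SE 0.08, adjusted p = 0.000188) and 0.48 (SE 0.07, adjusted p = 2.35e-05). None was called in HS against CT. GLYMA_16G096500 stood at 51, 47.2 and 48 CPM in the CT libraries, 70.3, 66.8 and 79.3 in WD, 53.6, 55.7 and 48.8 in HS and 88.3, 87 and 91.1 in WD + HS, with HS overlapping CT, and it rose by 0.30 (SE 0.08, adjusted p = 0.00789 in edgeR) in WD + HS against WD.

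Among the undescribed members of low level, GLYMA_07G139300 stood at 0.782, 0.669 and 0.86 CPM in the CT libraries, 2.14, 2.42 and 1.94 in WD, 3.81, 4.53 and 4.89 in HS and 6.56, 8.43 and 7.61 in WD + HS. HS was above WD in every library, and CT was the lowest group. It rose by 2.49 (SE 0.28, adjusted p = 6.19e-07 in edgeR) in HS against CT, the largest rise of the members there, and by 1.79 (SE 0.24, adjusted p = 1.04e-05) in WD + HS against WD. GLYMA_06G172200 stood at 0.326, 0.535 and 1.11 CPM in the CT libraries, 2.49, 2.69 and 2.28 in WD, 2.27, 1.32 and 1.71 in HS and 8.95, 7.09 and 9.54 in WD + HS, with CT replicate 3 the highest CT library and still below all HS libraries. It rose by 1.40 (SE 0.37, adjusted p = 0.0063 in edgeR) in HS against CT and by 1.77 (SE 0.30, adjusted p = 0.00013) in WD + HS against WD.

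GLYMA_05G045800 stood at 0.782, 0.848 and 0.676 CPM in the CT libraries, 2.7, 1.45 and 2.95 in WD, 1.54, 1.16 and 1.16 in HS and 9.32, 8.08 and 10.6 in WD + HS. WD + HS was well above every other library, and WD replicate 2 lay below HS replicate 1. It rose by 1.99 (SE 0.28, adjusted p = 1.51e-05 in edgeR) in WD + HS against WD, and HS against CT was 0.70 (SE 0.34, adjusted p = 0.131) although HS was above CT in all libraries. GLYMA_15G267900 stood at 0.652, 0.268 and 0.737 CPM in the CT libraries, 1.71, 1.72 and 1.27 in WD, 0.853, 1.58 and 0.806 in HS and 2.15, 2.32 and 2.9 in WD + HS. This member had the lowest mean level, with 6 to 48 reads a library. CT and HS did not overlap, and HS replicate 2 reached the WD level. Neither heat contrast was called, with 0.98 (SE 0.48, adjusted p = 0.13 in edgeR) and 0.64 (SE 0.42, adjusted p = 0.274).

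The 14 members outside the naming rule had mean levels of 3.10 to 59.3 CPM. Their log2 fold changes ran from 0.59 to 1.35 in WD against CT and from 0.60 to 1.77 in WD + HS against HS. Of these, 4 rose in HS against CT (range of all 14 from -0.46 to 0.79) and 7 in WD + HS against WD (range -0.34 to 1.16), and none fell. Those with a description were an NAD(P)-linked oxidoreductase (GLYMA_03G248400), ATP sulfurylase 1 (GLYMA_20G151500), which activates sulfate for assimilation, a WD40 repeat protein (GLYMA_16G116200) and UDP-glucosyl transferase 73C2 (GLYMA_03G186900), named after their values were seen. The WD40 repeat protein stood at 20.1, 18.3 and 22.5 CPM in the CT libraries, 31.7, 36.9 and 37 in WD, 36.7, 31.3 and 38.8 in HS and 63.8, 65.5 and 56.2 in WD + HS, and it rose by 0.79 (SE 0.11, adjusted p = 7.89e-06 in edgeR) in HS against CT and by 0.81 (SE 0.10, adjusted p = 4.42e-06) in WD + HS against WD. For ATP sulfurylase 1 neither heat contrast was called, with -0.13 (SE 0.10, adjusted p = 0.369 in edgeR) and -0.16 (SE 0.10, adjusted p = 0.243). The 28 described and the 18 undescribed members had median log2 fold changes of 0.98 and 0.73 in WD against CT and of 1.08 and 0.99 in WD + HS against HS. Only genes on the study's lists of changed genes carry a description, so these sets were not chosen alike, and their difference was not tested.

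Over all 46 members, HS against CT was called higher for 13 (28.3%) and lower for 3 (6.52%), beside 15.9% and 16% of all genes tested. Every HS library was above every CT library for 18 members (39.1%, beside 24.7% of all genes) and below for 5 (10.9%, beside 21.2%). The median log2 fold change was 0.19, with a range from -0.85 to 2.49. WD + HS against WD was called higher for 25 members (54.3%) and lower for 2 (4.35%), beside 13.7% and 16.4% of all genes. Every WD + HS library was above every WD library for 31 members (67.4%, beside 20.4%) and below for 3 (6.52%, beside 21.2%). The median there was 0.47, with a range from -1.67 to 2.03. The minimum of 2 CPM in the rule applied to WD + HS alone. Both heat contrasts share libraries with the contrasts that chose the members, so that the shares are given beside the background and were not tested against it.

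**Figure D4:**
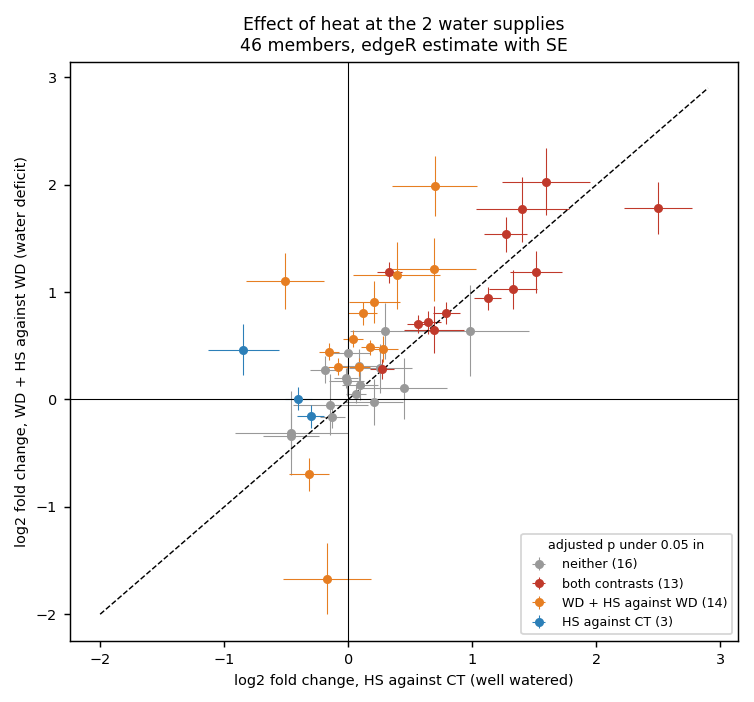
Log2 fold change of HS against CT in well-watered plants (horizontal) and of WD + HS against WD under water deficit (vertical) for the 46 members, as edgeR estimates with their SE (bars), coloured by the contrasts with an adjusted p under 0.05. The 13 red points, called in both, all lie to the upper right, and the 14 orange points were called in WD + HS against WD alone, 12 of them above 0 and 2 below.

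By these calls the members fell into a few patterns. A rise with heat in both waterings was called for 13 members (28.3%), beside 9.05% of all genes tested. Among them were the raffinose, sucrose and proline enzymes, glutathione peroxidase 6 and phospholipase C 2. In 12 members (26.1%) a rise was called in WD + HS against WD alone, beside 4.66% of all genes. In 2 (4.35%) a fall was called there alone, beside 6.32%. The 12 held the polyol/monosaccharide transporter and the 3 most abundant genes. The 3 members (6.52%) that fell in HS against CT alone, beside 5.96% of all genes, were the PP2C, the ABI5-binding protein and a DC1 gene. Neither heat contrast was called for 16 members (34.8%), beside 57.2% of all genes, among them zeaxanthin epoxidase, both NAC genes, the PLATZ gene and both expansins. A call in one watering and not in the other does not show that the effect of heat differed between them, and that difference is the interaction given next.

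The interaction asks whether the log2 fold change of WD at 38°C exceeded that at 28°C, which is the same as asking whether the effect of heat differed between waterings. It is made of both contrasts that chose the members, so its values are a description and no test is read from them. It was called higher for 5 members (10.9%), beside 0.497% of all genes tested, and lower for 0, beside 2.45%. At an unadjusted p under 0.05 edgeR gave 13 members (28.3%) in either direction, beside 13.6% of all genes. After adjustment DESeq2 called 8 (17.4%) higher, beside 0.718%, and 0 lower, beside 2.72%. The members' median was 0.19, with a range from -1.49 to 1.62. The 5 genes were raffinose synthase (GLYMA_05G003900) with 0.85 (SE 0.14), GLYMA_07G132600 with 0.60 (SE 0.11), the DC1 gene GLYMA_06G021200 with 0.53 (SE 0.11), the polyol/monosaccharide transporter (GLYMA_04G014000) with 0.69 (SE 0.16) and the DUF567 gene GLYMA_01G222600 with 1.62 (SE 0.41). None of the 5 was called in every alternative. GLYMA_01G222600 lost its call when any of 8 libraries was left out, and GLYMA_04G014000 without CT 3, HS 1, HS 3 or WD + HS 2. The remaining losses were in fits of FPKM values.

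Other lists of descriptions held no member. Their genes came from the study's lists of changed genes, so shares called above those of all genes follow in part from that choice. In the list of heat shock proteins, chaperones that bind unfolded proteins, 65 of 71 tested genes rose and 1 fell in HS against CT, beside 15.9% and 16% of all genes. In WD + HS against HS 3 of the 71 rose and 43 fell, beside 3.21% and 5.94%, and in WD against CT 5 fell, beside 0.682%. Among 12 aquaporins, the water channels of membranes, 2 fell in WD against CT, beside 0.682% of all genes. In WD + HS against HS 4 fell and 1 rose, beside 5.94% and 3.21%. Of 30 genes of nitrogen transport and storage 10 rose in WD against CT, beside 0.937% of all genes. In WD + HS against HS 3 of these rose and 1 fell (median log2 fold change -0.20), beside 3.21% and 5.94%.

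In deposited FPKM values, which scale counts to transcript length, 43 of the 46 members had no overlap between WD and CT and between WD + HS and HS, beside 1.99% of all genes tested, and 29 had both ratios at 1.3 or more. The same libraries chose the members, so that this is a description. The rule with FPKM ratios in place of CPM ratios gave 57 genes, of which 29 were members. GLYMA_02G053000, GLYMA_09G101100 and GLYMA_11G230100 overlapped. GLYMA_09G101100 had a mean of 4.45 CPM but of 0.221 FPKM, so that its counts and its FPKM disagree, for a cause that was not tested. The members lay on 18 chromosomes by their identifiers, with at most 5 on any of them, and no pair had neighbouring identifiers.

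The edge of the rule ran through close values. Just inside, the lowest WD to highest CT ratio and the lowest WD + HS to highest HS ratio were 1.3001 and 1.43 for GLYMA_06G143300 (expansin A8), 1.31 and 1.56 for GLYMA_16G096500, 1.34 and 1.303 for GLYMA_07G168500 and 1.76 and 1.303 for GLYMA_13G208000. Just outside were GLYMA_14G049500 (ethylene-forming enzyme, 1.297 and 1.39), GLYMA_14G219100 (GAST1 homolog, 1.29 and 1.85), GLYMA_20G091300 (low temperature and salt responsive protein, 1.29 and 2.15) and GLYMA_03G187000 (UDP-glucosyl transferase 73C1, 1.41 and 1.29).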

How the data were processed

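RNA of soybean closed flowers was sequenced in 12 libraries, 3 for each of CT, WD, HS and WD + HS, which were assigned by the sample labels. The authors trimmed reads with Trim Galore 0.6.4, checked them with FastQC 0.11.9, aligned them with HISAT2 2.2.1 to the Ensembl Plants 51 genome (Glycine max 2.1) and sorted them with SAMtools 1.9, per the submitters' processing notes. The deposited counts are whole reads per gene without normalization, and how reads were counted, by strand or at duplicated genes, is not given in the sources used here, so that near-identical gene copies may share reads. The deposited FPKM values were made by the authors for each library with Cufflinks. The count table holds 55897 genes and 57147 features have FPKM values.

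The members follow a rule on CPM, and the members and gene lists were chosen with earlier results of these data known. Genes that passed filterByExpr (minimum count of 10) were fitted with edgeR 4.0.16 under R 4.3.3, all 4 groups together, with TMM factors from 0.979 to 1.03 and quasi-likelihood tests. Benjamini-Hochberg adjustment ran over 38410 genes, with calls at an adjusted p under 0.05. The SE was taken as the size of the log2 fold change over the square root of F, which may be too small for genes with few reads. The script was tested on simulated data. Labels do not say that replicates pair, and same-numbered libraries deviated together at r of -0.18 to 0.11, with 2 of 18 pairs over 0.1, so no block was used.

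Named were the 8 members with the largest WD effect at each temperature, the 6 most abundant, up to 5 called in each heat contrast and direction by size, up to 5 with a called interaction in each direction, those on a list of descriptions, and those at the edge of the rule, 32 in all. Lists were matched on 2464 descriptions from the study's lists of changed genes. Each result was repeated with DESeq2 1.42.0, with limma 3.58.1 (limma-trend) on FPKM values (genes reaching 1 FPKM in 3 libraries or more), at pseudocounts of 1 and 0.1 before taking log2, with upper-quartile or no scaling factors, with no or a stricter filter on counts, with the replicate number as a block, within the compared groups, without single libraries, and with other settings of the rule. Promoter motifs and protein identity were planned but not analysed here, since no table used here matched these identifiers.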

Additional observations from a re-analysis of the deposited data

Results flagged for a closer look

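In edgeR's fit over all genes, the interaction of WD and temperature passed an adjusted p of 0.05 for 5 members, each with a larger log2 fold change of WD at 38°C than at 28°C. Both parts of this difference were used to choose the members, so that no test is read from it, and none of the 5 passed in every alternative. The difference was 1.62 for GLYMA_01G222600 (DUF567), 0.85 for GLYMA_05G003900 (raffinose synthase), 0.69 for GLYMA_04G014000 (polyol/monosaccharide transporter 5), 0.60 for GLYMA_07G132600 (no description) and 0.53 for GLYMA_06G021200 (DC1 domain). In all 5, every WD + HS library was above every WD library, and HS overlapped with CT in all but GLYMA_05G003900.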

How the results depend on the processing

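Counts of members called in WD against CT, WD + HS against HS and the rises with heat kept within 1.5 times their values under all alternatives run. The 3 falls in HS against CT became 0 with limma-trend on log2(FPKM + 1) and on log2(FPKM + 0.1), and the 5 larger effects of WD at 38°C became 8 with DESeq2, 3 with log2(FPKM + 1) and 1 with log2(FPKM + 0.1). The smaller effects, 0 in the fit reported, became 1 with no filter on low counts. The rule gave 11 genes with a ratio of 1.5 and 3 with a ratio of 2. The causes were not tested, except that a higher ratio leaves fewer genes by construction. With single libraries left out, members called ranged from 28 to 40 in WD against CT, from 39 to 44 in WD + HS against HS, from 10 to 13 (higher) and from 1 to 3 (lower) in HS against CT, from 24 to 27 (higher) and at 2 (lower) in WD + HS against WD, from 3 to 5 for a larger and from 0 to 1 for a smaller effect of WD at 38°C. The falls in HS against CT numbered 1 without CT replicate 2 and 1 without HS replicate 2, the larger effects 3 without WD + HS replicate 2, and the smaller effects 1 without WD replicate 2. The rule gave 47 to 73 genes, with 73 without WD replicate 2. With a replicate block, HS against CT gave 13 higher and 2 lower, WD + HS against WD 26 higher and 2 lower, and the interaction 6 higher and 0 lower, with 39 and 43 members called in the contrasts of the rule, and the numbers do not pair the libraries. No named gene reversed its direction after a call. A fit of only the libraries compared was not run for the interaction. Members with few reads carry the widest errors, and 3 members had a library under 10 reads.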
